A study of Mus musculus with 12 samples.

Results

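The genes described here encode the autophagy machinery and the acid, protease-filled lysosome to which it delivers. They were chosen by symbol: the numbered Atg genes, Becn1, Ulk1 and Ulk2, the Wipi genes, the ATG8 genes (Map1lc3 and Gabarap symbols), Sqstm1, the Lamp genes, the subunits and accessory proteins of the vacuolar proton pump (Atp6v and Atp6ap symbols) and the cathepsins (Cts and a letter). This gave 56 genes of the 11806 in the table analysed, and 1 further match, the pseudogene Atp6v0c-ps2, was left out by the rule. The rule used names and no measured value, but it was set with earlier results of these data known.

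Ovarian follicles from 16-day-old mice of the outbred CD-1 strain were compared after vitrification, which is cryopreservation by cooling into a glass-like state, or without it (fresh). Each group had 6 libraries, each from 1 follicle. All follicles, fresh ones included, had been grown for 8 days in 0.5% alginate, a gel that keeps the follicle round, in medium with 10 mIU/mL recombinant follicle-stimulating hormone, insulin, transferrin and selenium. The labels do not give the freezing and warming steps, or which follicles came from the same mouse, so the p-values measure only the spread between these libraries.

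In autophagy, a cell encloses cytoplasm, proteins or organelles in a double membrane, the autophagosome, which then fuses with lysosomes so that their hydrolases can break the contents down. A kinase complex starts the process, a lipid kinase complex marks the membrane, and a chain of ubiquitin-like reactions attaches ATG8 proteins to it. Cargo receptors such as the product of Sqstm1 (p62) link cargo to ATG8. The proton pump, a V-ATPase with a membrane sector (V0) and a catalytic sector in the cytosol (V1), acidifies the lysosome, where the cathepsins work. In the ovary autophagy is known in oocytes and in granulosa cells, where it has been linked to follicle loss, and a vitrified follicle has passed through osmotic and cold stress.

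No member differed between vitrified and fresh follicles past the threshold. The authors' deposited table gives 55 members an adjusted p, of which 0 were under 0.05, against 0.529% of the 10963 genes with one. With an unadjusted p under 0.05 there were 2 members, or 3.64%, where 7.02% of all tested genes lay. Both were higher after vitrification, a direction that 3.24% of all tested genes had at that p while 3.79% had the opposite one. They were Ctsh, which encodes the aminopeptidase cathepsin H, and Map1lc3b, which encodes the autophagosome marker LC3B. By the authors' deposited table, there were 26 higher members and 29 lower ones, or 47.3% higher, beside 46.8% of all tested genes. Their median log2 fold change was -0.01, beside -0.02 for all tested genes, and the members ran from -0.64 to 0.76.

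The data bound most of these genes narrowly. A 95% interval was derived for each gene from its fold change and p-value in the authors' deposited table, taking the p as two-sided and normal. It lay wholly within 2-fold in either direction for 51 of 55 members, or 92.7%, against 69.1% of all tested genes. It lay within 1.5-fold for 30, or 54.5%, against 23.2%. Members had higher totals than most genes, with a median of 878 against 273, and the interval narrows with the total. At totals from 300 to 1000, 57.7% of 26 members and 37.1% of 3567 tested genes were within 1.5-fold. From 1000 upwards the shares were 71.4% of 21 members and 55.6% of 2007 genes. Under 300, 0 of 8 members were, so a 1.5-fold difference in at least 1 direction lies inside the interval of each. A fold change of at least 1.5 was seen in 2 of the 55 tested members, Ctsh and Atg16l2, or 3.64%, against 9.26% of all tested genes. Atg10, which has no adjusted p, also had a fold of 1.52 in the authors' deposited table. No value per follicle was analysed here, so levels in single follicles, and whether the groups overlap, cannot be shown.

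**Figure D1:**
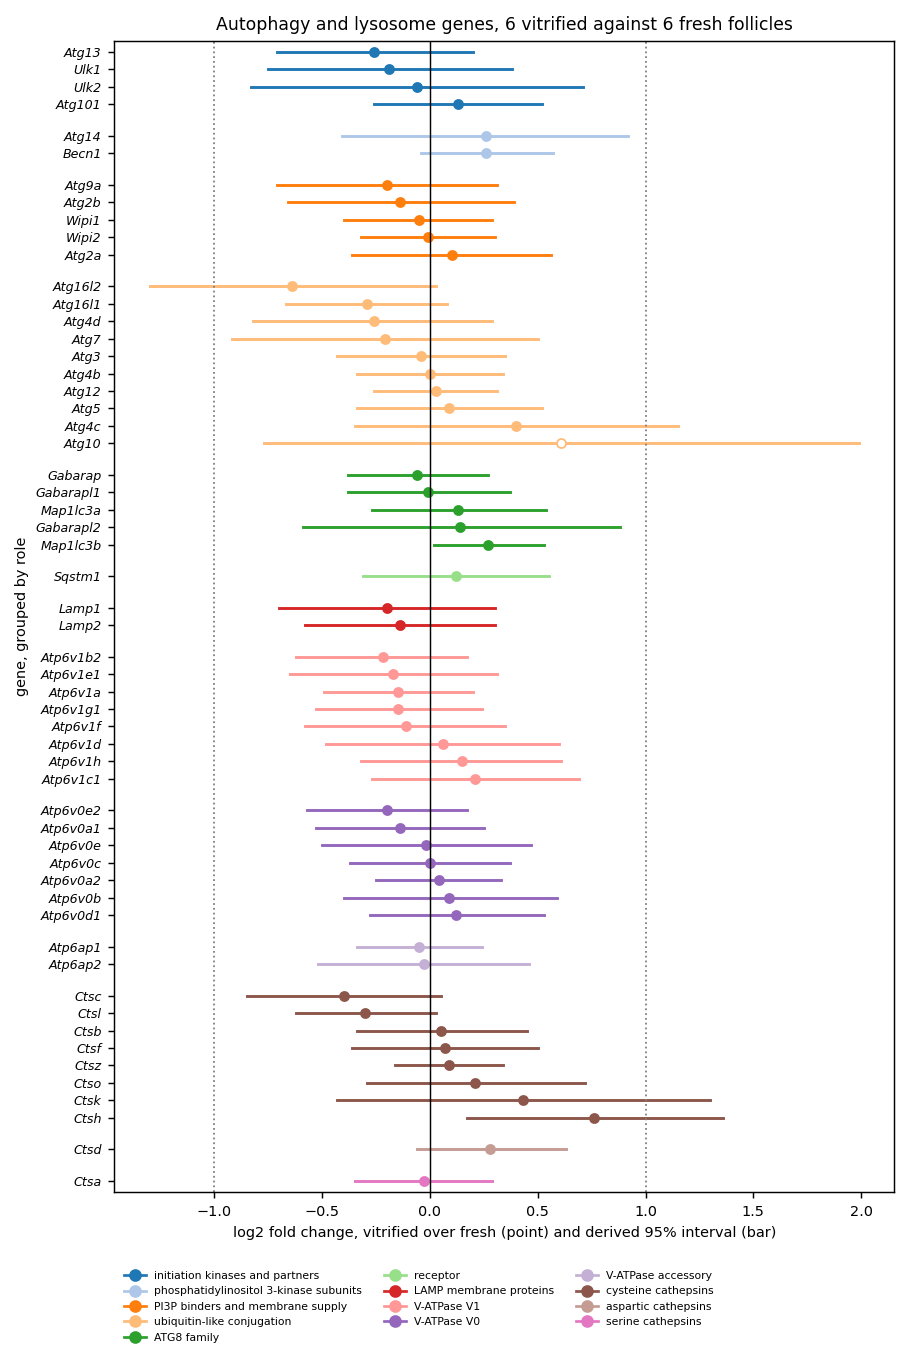
Log2 fold change of vitrified over fresh follicles (points, horizontal axis) with the derived 95% interval (bars) for the 56 genes, grouped by role on the vertical axis. Dotted lines mark 2-fold, the open point marks Atg10, which has no adjusted p, and the intervals of Ctsh and Map1lc3b are those that do not reach 0.

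Many lysosomal genes carry near their start the CLEAR element, the site read by the transcription factor TFEB and its relatives TFE3 and MITF, whose core is the E-box CACGTG. The promoters of the members were searched because this shared element is the usual route by which such genes move together. Windows from 250 bases before to 50 after a start, from RefSeq on GRCm38.p6, were found for 45 of the 56 members; those without an entry include Ctsh, Ctsb, Becn1 and Map1lc3a. On either strand, the longer form TCACGTGAC, which contains the E-box, was in windows of 4 members, or 8.89%. It was in 2.16% of the 8052 tested genes with a window and in 0.895% of all 27025 genes with one. The 5 matches follow 5′ to 3′ on the gene's strand, with the match in capitals.
Atg3, chr16:45158746-45158774, plus strand: ggagagtcgaGTCACGTGAggccttaggt
Atp6v0d1, chr8:105566051-105566079, minus strand: ccctactgcgGTCACGTGAgacgcggtgc
Ctsa, chr2:164833749-164833777, plus strand: tgagcaaactGTCACGTGAtgcagatgct
Ctsa, chr2:164833767-164833795, plus strand: atgcagatgcTCACGTGACcagagctaca
Ctsd, chr7:142387908-142387936, minus strand: cgcccgcgtcTCACGTGACccgttgaggg

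The E-box alone was in windows of 13 members, or 28.9%, against 12.3% of tested genes with a window. The promoter of Lamp1, which encodes a main glycoprotein of the lysosomal membrane, held 4 of them, and those of Ctsl and Atp6v1a, a catalytic pump subunit, held 1 each. The sites are shown because they lie in genes of the membrane, the pump and the proteases, with the E-box in capitals.
Lamp1, chr8:13159090-13159115, plus strand: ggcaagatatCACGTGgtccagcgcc
Lamp1, chr8:13159106-13159131, plus strand: gtccagcgccCACGTGatgccgactg
Lamp1, chr8:13159123-13159148, plus strand: tgccgactggCACGTGaccacatcac
Lamp1, chr8:13159136-13159161, plus strand: gtgaccacatCACGTGcggaacggag
Ctsl, chr13:64370741-64370766, minus strand: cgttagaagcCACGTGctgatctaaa
Atp6v1a, chr16:44139375-44139400, minus strand: ttttttaaatCACGTGataggcttaa

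The medians of members with and without an E-box both lay near 0. No member passed the threshold, so whether the sites go with a direction cannot be judged from these values. By the authors' deposited table, the 13 members with an E-box ran from -0.30 to 0.28 on the log2 scale, 6 higher and 7 lower, around a median of -0.02. The 31 tested members whose window held none had a median of -0.05 in the same source, 12 higher and 19 lower. By the authors' deposited table, the 4 genes with the longer form had a median of 0.05, with 2 higher and 2 lower. A match is a run of letters, and neither binding nor the activity of the factors was measured. Of the factors, Tfe3 had a log2 fold change of -0.07 (-0.46 to 0.31, p = 0.70, adjusted p = 1.00) and Mitf, at a total of only 60.2, 0.10 (-0.84 to 1.03, p = 0.84, adjusted p = 1.00) in the authors' deposited table. Tfeb is not analysed here.

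Autophagy starts with a kinase complex. ULK1 and ULK2 are the kinases, and the products of Atg13 and Atg101 hold their complex together. In the authors' deposited table their log2 fold changes were -0.19 for Ulk1 (95% interval -0.75 to 0.38, p = 0.52), -0.06 for Ulk2 (-0.83 to 0.71, p = 0.88), -0.26 for Atg13 (-0.71 to 0.20, p = 0.27) and 0.13 for Atg101 (-0.26 to 0.52, p = 0.51). The lowest adjusted p of these 4 was 0.98, and all 4 intervals lay within 2-fold.

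The lipid kinase that marks the forming membrane is held by Beclin 1, from Becn1, and by ATG14. Becn1 lies on chromosome 11 from 101285952 to 101302286 of GRCm38. It had a log2 fold change of 0.26 (-0.04 to 0.57, p = 0.092, adjusted p = 0.83) in the authors' deposited table. Of the exon bases of Becn1, 43.9% overlap Cntd1 on the opposite strand. Whether the counting used strand is not known here, so reads of Becn1 and Cntd1 may not be told apart. Atg14 also stood at 0.26 but with a wider interval (-0.41 to 0.92, p = 0.45) in the authors' deposited table.

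Downstream of that lipid mark, WIPI proteins bind it, ATG2 proteins carry lipid into the growing membrane and ATG9A, the scramblase, is the membrane protein that seeds it. Log2 fold changes in the authors' deposited table were -0.20 for Atg9a (-0.71 to 0.31, p = 0.44), -0.14 for Atg2b (-0.66 to 0.39, p = 0.61), 0.10 for Atg2a (-0.36 to 0.56, p = 0.66), -0.05 for Wipi1 and -0.01 for Wipi2. All 5 intervals lay within 2-fold. Atg9a shares 41.3% of its 50-base transcript windows with another gene, mainly Gm29253, so its value is uncertain.

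The conjugation genes make the enzymes that join ATG12 to ATG5 and lipid to ATG8. This group held the member with the lowest value, Atg16l2, a relative of the scaffold gene Atg16l1, with a log2 fold change of -0.64 (-1.30 to 0.03, p = 0.063, adjusted p = 0.76) on a total of 234 in the authors' deposited table. Atg16l1 itself stood at -0.29 (-0.67 to 0.08, p = 0.13) in the authors' deposited table. The E1-like enzyme gene Atg7 had -0.21 (-0.92 to 0.50, p = 0.57) on a total of 155, and Atg5 0.09 (-0.34 to 0.52, p = 0.68), in the authors' deposited table. The E2-like enzyme gene Atg3 stood at -0.04 and Atg12, the ubiquitin-like modifier, at 0.03. The ATG4 proteases, which trim ATG8 before it is attached and release it later, did not share a direction. In the authors' deposited table Atg4c had a log2 fold change of 0.40 (-0.35 to 1.15, p = 0.30), Atg4d -0.26 (-0.82 to 0.29, p = 0.35) and Atg4b 0.00 (-0.34 to 0.34, p = 0.99). Atg10, at a total of 46.4, has no adjusted p and a log2 fold change of 0.61 with an interval from -0.77 to 1.99, so the table says little of it. Of the 9 tested genes of this role 4 were higher and 5 lower, with a median of -0.04.

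The 5 ATG8 genes encode small ubiquitin-like proteins that coat the autophagosome and bind cargo receptors. Map1lc3b, on chromosome 8 from 121590361 to 121598760 of GRCm38, had a log2 fold change of 0.27 (0.02 to 0.53), or 1.21-fold higher, on a total of 2790 in the authors' deposited table (p = 0.035, adjusted p = 0.64). Its difference did not pass the test over all genes. Of its windows, 11.9% occur in another gene, mainly Gm6055. The close relative Map1lc3a had a log2 fold change of 0.13 (-0.27 to 0.54, p = 0.52) in the authors' deposited table. The GABARAP subfamily stood at -0.06 for Gabarap (-0.38 to 0.27, p = 0.74), -0.01 for Gabarapl1 (-0.38 to 0.37, p = 0.97) and 0.14 for Gabarapl2 (-0.59 to 0.88, p = 0.70) in the authors' deposited table. Windows that occur in another gene make up 24.7% of Gabarapl1 and 19.0% of Gabarapl2. Whether Map1lc3b differed from the other ATG8 genes was not tested. All 5 intervals lay within 2-fold, and 4 within 1.5-fold.

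Sqstm1 was the member with the highest total, at 35575, above 99.6% of the genes in the table. It lies on chromosome 11 from 50199366 to 50210827 of GRCm38. Its protein p62 is both a cargo receptor and itself degraded by autophagy, so the level of its messenger RNA and that of the protein need not move together. The log2 fold change of Sqstm1 was 0.12 (-0.31 to 0.55, p = 0.58, adjusted p = 1.00) in the authors' deposited table, within 1.5-fold in either direction. Opposite-strand exons of Mrnip overlap 17.3% of its exon bases.

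**Figure D2:**
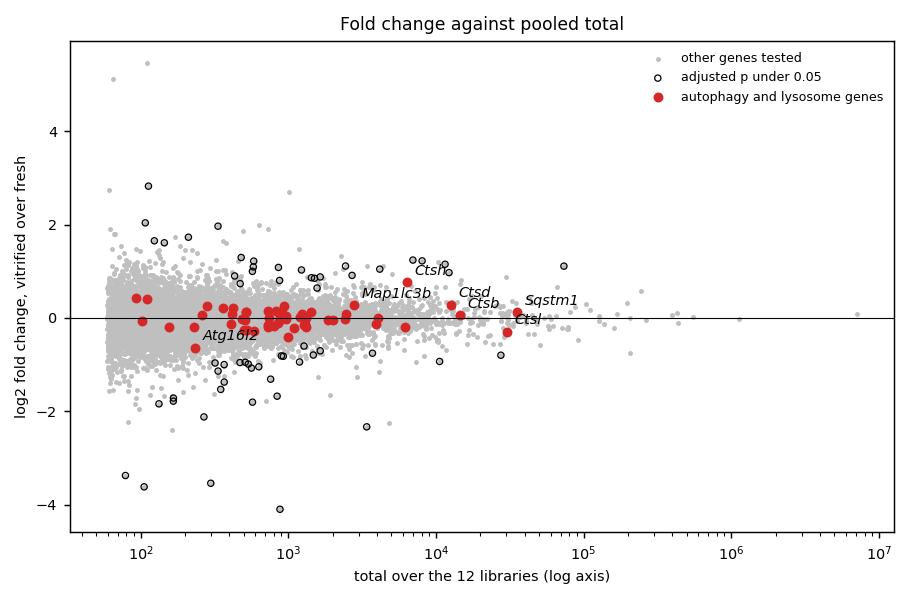
Log2 fold change (vertical axis) against the total over the 12 libraries (horizontal log axis) for the 10963 tested genes, with autophagy and lysosome genes in red and genes at an adjusted p under 0.05 ringed. No red point is ringed; Sqstm1 and Ctsl lie furthest right among the red points, and Ctsh lies highest among them.

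The proton pump genes lay close to no change. By the authors' deposited table, 7 of 17 tested genes were higher and 10 lower, between -0.22 and 0.21 on the log2 scale, and 0 had an unadjusted p under 0.05. Every one of these 17 intervals lay within 2-fold, and 11 within 1.5-fold. In the catalytic V1 sector the lowest p values belonged to Atp6v1b2, which encodes a nucleotide-binding subunit, at a log2 fold change of -0.22 (-0.62 to 0.17, p = 0.27), Atp6v1c1 at 0.21 (-0.27 to 0.69, p = 0.39) and Atp6v1a at -0.15 (-0.49 to 0.20, p = 0.41) in the authors' deposited table. In the membrane sector V0 they belonged to Atp6v0e2 at -0.20 (-0.57 to 0.17, p = 0.28), Atp6v0a1 at -0.14 (-0.53 to 0.25, p = 0.48) and Atp6v0d1 at 0.12 (-0.28 to 0.53, p = 0.55) in the authors' deposited table.

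Atp6v0c, which encodes the subunit of the proton-carrying ring, had a log2 fold change of 0.00 (-0.37 to 0.37, p = 1.00) at a total of 4041 in the authors' deposited table. It shares 26.6% of its windows with other genes, mainly the pseudogene Atp6v0c-ps2, of which 88.2% are shared. That pseudogene had a total of 469 and a log2 fold change of -0.36 (p = 0.25) in the authors' deposited table, so reads may be divided between the copies. The accessory proteins, ATP6AP1 and the prorenin receptor ATP6AP2, had log2 fold changes of -0.05 (-0.34 to 0.24, p = 0.74) for Atp6ap1 and -0.03 (-0.52 to 0.46, p = 0.90) for Atp6ap2 in the authors' deposited table. Lamp1 and Lamp2, which encode the main glycoproteins of the lysosomal membrane, stood at -0.20 (-0.70 to 0.30, p = 0.43) and -0.14 (-0.58 to 0.30, p = 0.54) in the authors' deposited table.

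The cathepsins spanned a wide range, from -0.40 to 0.76 on the log2 scale. By the authors' deposited table, 7 of 10 tested were higher and 3 lower, with a median of 0.08. Of all tested genes, 46.8% were higher. Ctsh, on chromosome 9 from 90054152 to 90076089 of GRCm38, had the lowest p of all members. It was 1.70-fold higher in vitrified follicles on a total of 6423 in the authors' deposited table, a log2 fold change of 0.76 (0.17 to 1.36, p = 0.012, adjusted p = 0.42). By p it was number 312 of the 10963 genes tested. None of its windows occurs in another gene and no other gene's exon overlaps its own. The fold could be as small as 1.12 or as large as 2.56 by its interval, and it did not pass the test over all genes.

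Ctsl and Ctsc had values on the other side. Ctsl encodes the endopeptidase cathepsin L, known in granulosa cells of growing follicles, and lies on chromosome 13 from 64359337 to 64370890. It had a log2 fold change of -0.30 (-0.62 to 0.03, p = 0.072, adjusted p = 0.78) at a total of 30282 in the authors' deposited table. Exons of Gm47123 and Gm49230 overlap 26.8% of the exon bases of Ctsl, and 17.2% of its windows occur in another gene. Ctsc, which encodes the dipeptidyl peptidase that activates serine proteases of immune cells, stood at -0.40 (-0.85 to 0.05, p = 0.082, adjusted p = 0.81) in the authors' deposited table. The aspartic protease gene Ctsd had 0.28 (-0.06 to 0.63, p = 0.11) in the authors' deposited table, and 32.0% of its windows occur in another gene, mainly Gm49369. Ctsb, at a total of 14500, stood at 0.05 (-0.34 to 0.45, p = 0.78), and Ctsa, the serine carboxypeptidase that also protects lysosomal sialidase, at -0.03 (-0.35 to 0.29, p = 0.85) in the authors' deposited table. Ctsz, Ctsf and Ctso were between 0.07 and 0.21, and Ctsk, the collagen-cutting cathepsin of osteoclasts, had 0.43 with a wide interval (-0.43 to 1.30, p = 0.33) on a total of 93.8, all in the authors' deposited table. Ctsh and Ctsl differ in sign, but a test of that difference needs values per follicle and was not made.

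Markers of some follicle cell types had medians away from 0, and those of other types did not. Of 8 theca markers, 6 were higher by the authors' deposited table, with a median of 0.83 on the log2 scale, and 4 had an unadjusted p under 0.05, of which 3 were higher and 1, Fbln1 at -0.50 (p = 0.0081), lower. Of all tested genes, 7.02% had an unadjusted p under 0.05. All 6 tested oocyte markers were higher, with a median of 0.81, 0 at that p and a median standard error of 0.72. All 6 tested endothelial markers were lower, with a median of -0.82, 0 at that p and a median standard error of 1.11. Of 6 tested stroma markers 3 were higher and 3 lower, with a median of 0.01 and 0 at that p. Of 9 granulosa markers 4 were higher, with a median of -0.02, and 2 had an unadjusted p under 0.05 in opposite directions. These were Fshr, the receptor gene for follicle-stimulating hormone, at 0.67 (p = 0.013) and Kctd14 at -1.27 (p = 0.049) in the authors' deposited table. Adjusted p under 0.05 was reached by 0 markers of any list, the lowest being 0.098 for the theca marker Aldh1a1. Immune cells, which are rich in lysosomes, had 1 of 14 markers in the authors' deposited table, Lyz2 at a log2 fold change of -1.05 (p = 0.040, adjusted p = 0.67) on a total of 291; the others are not analysed here. More cells of a type and more RNA per cell cannot be told apart in a whole follicle, and the part of cell makeup in the values of Ctsh or other members was not tested.

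Scaled to length, the stores of messenger RNA differed widely between genes, also within a role. Totals over the 12 libraries were divided by the length of the GENCODE principal transcript with the best support, which may not be the transcript expressed. The members spanned 17.7 per kilobase for Ulk2 to 17465 for Sqstm1. Ctsl followed Sqstm1 with 15364 per kilobase, then Ctsd with 5957, Ctsh with 3972, Atp6v0c with 3416, Ctsb with 3057 and Lamp1 with 2758. Together Sqstm1, Ctsl, Ctsb and Ctsd held 60.1% of the members' summed total of 154909, unscaled. The ATG8 genes lay between 432 for Gabarapl2 and 1371 for Gabarap per kilobase, with Map1lc3a at 1279 and Map1lc3b at 1102. Conjugation genes reached at most 250 per kilobase, for Atg12, and Becn1 had 214. The cysteine cathepsins alone ran from 62.0 per kilobase for Ctsk to 15364 for Ctsl.

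Within the pump, the subunit genes had unequal totals per kilobase, and the reason was not tested. In V0 they ran from 172 for Atp6v0e through 319 for Atp6v0d1 to 3416 for Atp6v0c, which shares 26.6% of its windows. In V1 they ran from 71.1 for Atp6v1d through 171 for Atp6v1a and 387 for Atp6v1b2 to 1216 for Atp6v1f. These pooled values have no spread over follicles, so neighbours in the order cannot be called different.

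**Figure D3:**
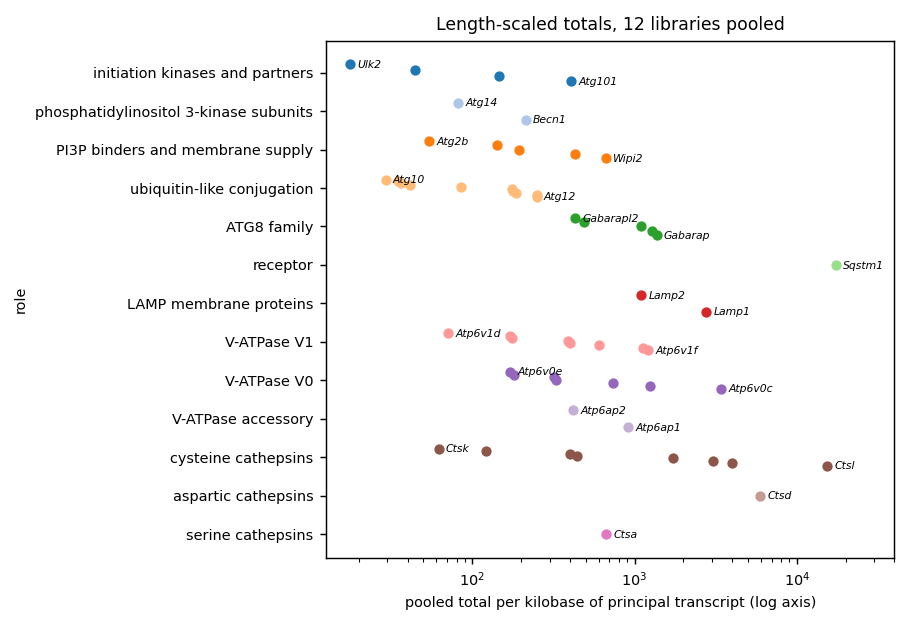
Pooled total over the 12 libraries per kilobase of principal transcript (horizontal log axis) for each gene, by role (vertical axis), with the lowest and highest gene of each role named. Sqstm1 at 17465 and Ctsl at 15364 lie above the other genes, and Ulk2 at 17.7 lies lowest.

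Genes of the same pathways that the symbol rule leaves out gave a like picture. From 9 lists of 155 genes, 142 were tested. By the authors' deposited table, there were 78 higher and 64 lower genes, their median log2 value was 0.02, and 0 passed an adjusted p of 0.05. At an unadjusted p under 0.05 there were 11, or 7.75%, beside the 7.02% of all tested genes, 6 of them higher and 5 lower.

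Autophagy receptors other than Sqstm1 held 5 of those 11. That is 31.2% of the 16 tested genes of this list, against 7.02% of all tested genes. Bnip3 and Bnip3l encode receptors on mitochondria that are also targets of the hypoxia response. Their log2 fold changes were -0.94 (-1.49 to -0.39, p = 8.4e-04, adjusted p = 0.11) for Bnip3 and -0.51 (-0.86 to -0.16, p = 0.0040, adjusted p = 0.25) for Bnip3l in the authors' deposited table. Windows shared with another gene make up 50.0% of Bnip3 and 31.6% of Bnip3l, so both are uncertain. Chosen after their values were seen, the mitochondrial protein gene Fkbp8 and the endoplasmic reticulum receptor gene Ccpg1 stood at 0.43 each (p = 0.015 and p = 0.027), and Wdfy3, a scaffold for aggregates, at -0.47 (p = 0.031) in the authors' deposited table. Of Ccpg1, 74.7% of windows are shared. The list as a whole was not shifted in 1 direction, with 9 of 16 higher and a median of 0.06.

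Among other machinery, Rubcn, which encodes Rubicon, an inhibitor of the lipid kinase complex of Beclin 1 and of autophagosome maturation, had a log2 fold change of -0.67 (-1.14 to -0.20, p = 0.0052, adjusted p = 0.30) on a total of 422 in the authors' deposited table. Rb1cc1, the scaffold gene of the starting kinase complex, stood at 0.32 (-0.07 to 0.70, p = 0.11) in the authors' deposited table. Upstream, the nutrient-sensing kinase complex mTORC1 holds autophagy down. Of 22 tested genes of upstream control 10 were higher and 12 lower, with a median of -0.01, and 1 had an unadjusted p under 0.05. The kinase gene itself, Mtor, stood at -0.38 (-0.86 to 0.11, p = 0.13) in the authors' deposited table. The subunit gene of the complex, Rptor, had 0.48 (0.14 to 0.83, p = 0.0063, adjusted p = 0.32) and the activator gene Rheb 0.32 (-0.01 to 0.64, p = 0.057) in the authors' deposited table. Of 14 fusion genes 6 were higher and 8 lower, with 0 at an unadjusted p under 0.05. Rab7, the late endosome GTPase gene of that list, stood at 0.25 (-0.02 to 0.52, p = 0.065) and Arl8b at -0.14 (-0.37 to 0.10, p = 0.25) in the authors' deposited table.

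Lysosomal hydrolases other than cathepsins had 23 of 35 genes higher by the authors' deposited table, or 65.7%, beside 46.8% of all tested genes. Their median was 0.07 on the log2 scale. Plbd2, a phospholipase B-like gene, stood at 0.68 (0.10 to 1.26, p = 0.022, adjusted p = 0.53) and the acid glucosidase gene Gaa at 0.27 (0.03 to 0.52, p = 0.029, adjusted p = 0.60) in the authors' deposited table. At an unadjusted p under 0.05 there were 4 genes of this list, or 11.4%, against 7.02% of all tested genes. Among these 4 genes, 3 were higher and 1 lower. The lower gene, named after its value was seen, was Sgsh, the sulfamidase gene, at -0.47 (-0.91 to -0.04, p = 0.033) in the authors' deposited table. Membrane proteins and carriers had 14 of 20 higher, or 70.0%, with a median of 0.09, and 0 at an unadjusted p under 0.05. Among these the authors' deposited table gave 0.69 for Mfsd8 (-0.05 to 1.44, p = 0.068), 0.21 for the calcium channel gene Mcoln1 (-0.09 to 0.51, p = 0.17) and 0.09 for the cholesterol exporter gene Npc1 (-0.39 to 0.57, p = 0.72). Of the 10 genes that deliver enzymes to lysosomes 5 were higher and 5 lower. The sorting receptor gene Sort1 had -0.67 (-1.38 to 0.05, p = 0.067) and Igf2r, a mannose 6-phosphate receptor gene, -0.34 (-0.76 to 0.08, p = 0.11) in the authors' deposited table. Another such receptor gene, M6pr, stood at -0.06 (-0.34 to 0.23, p = 0.69) in the authors' deposited table. Tcirg1, the pump subunit gene outside the symbol rule, stood at 0.43 (-0.05 to 0.91, p = 0.076) and Ncoa7 at -0.57 (-1.29 to 0.15, p = 0.12) in the authors' deposited table. All 4 tested cathepsin inhibitor genes were lower in the authors' deposited table, from -0.90 (-1.85 to 0.04, p = 0.061) for Cstb, on a total of 117, and -0.10 (p = 0.72) for Serpinb1a to -0.01 (p = 0.98) for Cst3, the cystatin C gene.

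**Figure D4:**
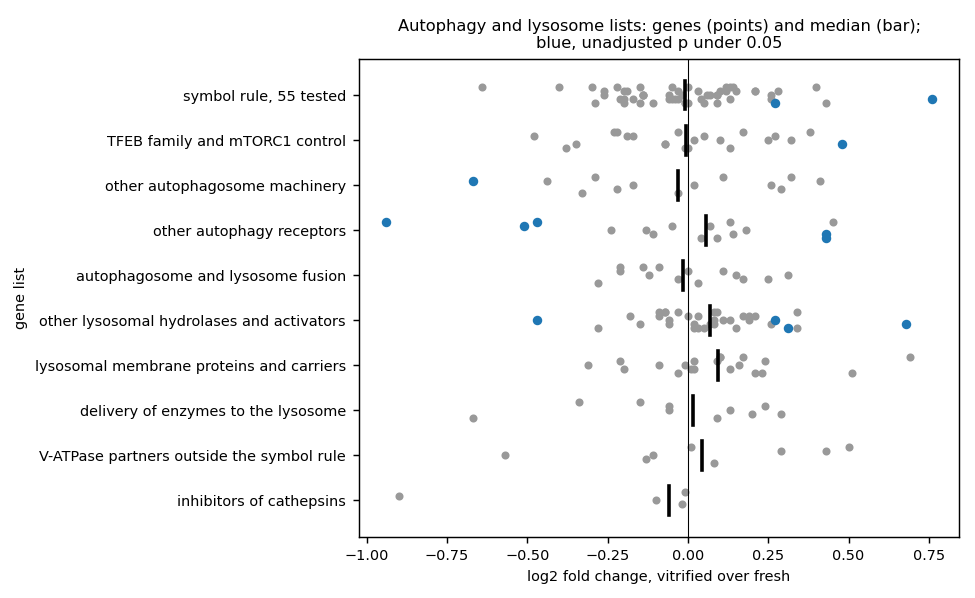
Log2 fold change (horizontal axis) of each tested gene (points) and the median (black bars) for the genes of the symbol rule and the 9 other lists of the pathway (vertical axis), with an unadjusted p under 0.05 in blue. The medians lie between -0.06 and 0.09, and 5 of the blue points belong to the autophagy receptors.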

How the data were processed

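RNA of 12 single follicles (6 fresh, 6 vitrified) was sequenced by Smart-seq, per the labels' protocols. Bowtie2, HISAT2, Partek, DESeq2 and the build mm10 are named in the submitters' processing notes, without versions or roles. Counting rule, strand use and annotation: not given in the sources used here. As data, the authors deposited 1 comparison table, which holds for each gene, per the file headers, a log2 fold change, the same as a signed fold, a p-value, that p-value after step-up adjustment, and a pooled total. Totals are rarely whole (0.237% within 0.001) and were not treated as raw reads; depth per library is unknown. The 843 genes with a total of at most 59.44 have no adjusted p. Adjusted p-values were recomputed over 10963 genes and differed by at most 0.598%. Values of single follicles were not analysed here, so the planned count models and replicate block were not fitted.

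Errors and 95% intervals were derived from each log2 fold change deposited by the authors and its p, as a normal statistic. The steps were tested on simulated data with the same normal form. That test cannot show whether the authors' p-values have this form. Positions, lengths, exon overlap and shared 50-base windows (every 25 bases, both strands) came from GENCODE M21 (GRCm38), in Python 3.11.15 with SciPy 1.17.1. Members and lists were chosen with earlier results of these data known. All members may be named; intervals were given for those at an unadjusted p under 0.05, the 3 of lowest p per role, the 3 of highest total and 17 set genes. Ulk2, Atg4b, Atg4d, Atg10, Atp6v0c and Ctsk were given intervals outside that rule. Of other lists, the 2 of lowest p and 6 set genes were to be named. Mtor, Mitf, Cst3, M6pr, Fkbp8, Ccpg1, Wdfy3 and Sgsh were named outside that rule. Alternatives were the filter on totals (none, or at least 120), a t distribution of 10 degrees of freedom, an adjusted p of 0.1, centring, weighting and leaving out shared sequence. The value of 1 gene of the other lists is not reported here.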

Additional observations from a re-analysis of the deposited data

How the results depend on the processing

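Of 20 alternative values over 5 results, 1 count moved by more than 1.5 times, and the median, near 0, turned its sign under 1 setting. The counts of members and of other pathway genes past the adjusted p were 0 under each of 4 alternatives: no filter on totals, totals of at least 120, a t distribution with 10 degrees of freedom, and a threshold of 0.1. The last 2 could not have given another count. The t distribution only raises p-values, and the lowest adjusted p was 0.42 for members and 0.11 for the other pathway genes. With p-values of the authors' deposited table carried to that t distribution, 1 member, Ctsh (p = 0.031), in place of 2 had an unadjusted p under 0.05, and Map1lc3b had p = 0.061. Whether that distribution suits the authors' test is not known here. Over 6 alternatives, 1 of them a weighted mean (0.00) in place of a median, the median log2 fold change of the members lay between -0.02 and 0.01. Its sign turned with centring on the median of all tested genes, which also made 29 members higher and 26 lower and turned the sign of Atp6v0e, Gabarapl1 and Wipi2. The lowest of these medians, -0.02, left out members with an exon that overlaps another gene, an alternative chosen after seeing the data. Between 49 and 51 members had an interval within 2-fold. No member had 50% or more of its windows shared, so leaving such members out removed none. No paired analysis was possible because the table holds no value per follicle; leaving out single libraries and DESeq2 against edgeR were not run for the same reason.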
